A study of Mus musculus with 10 samples.

Results

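Monoamine oxidases and genes of serotonin handling were followed in whole mouse oviducts that lacked the progesterone receptor. The set holds 10 genes, given by a list of symbols: the oxidases Maoa, Maob, Aoc1 and Aoc3, the serotonin receptors Htr1b, Htr2a and Htr2b, and the amine transporters Slc22a3, Slc29a4 and Slc18a2. Each gene was read through the array's probe sets annotated to its symbol alone, the one with the highest mean over 10 arrays standing for the gene. Probe sets were thus chosen by their mean signal over both genotypes, and every measured member had 1 such probe set. Those means ran from 3.68 for Htr2b to 8.13 for Aoc1. Of the 10 genes, 9 were measured, among 19938 named genes in all; Slc22a3 was not analysed here, since no probe set was paired with that symbol alone. The list was drawn up with results of these data known, so its counts describe these genes and support nothing further.

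The compared animals were PRKO mice, homozygous for a lacZ knock-in that disrupts both isoforms of the progesterone receptor in every tissue, and PR+/- mice with 1 such allele, which are fertile and served as controls. All were prepubertal, 21 to 23 days old, and received 5 IU of equine chorionic gonadotropin (eCG), which stimulates follicle growth, and 44 to 47 h later 5 IU of human chorionic gonadotropin (hCG), the ovulatory trigger. The tissue was collected 8 h after this second injection. Each array carried a pool from 3 animals, and each genotype had 5 arrays and 15 animals. Values are log2 signals, so a difference of 1 is a doubling if the deposited scale is log2, as its range implies.

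Monoamine oxidases A and B are flavin enzymes of the outer mitochondrial membrane. They remove the amino group of amines and give an aldehyde, ammonia and hydrogen peroxide; the A form prefers serotonin and noradrenaline, the B form phenylethylamine, and both use dopamine. Serotonin is made by tryptophan hydroxylase and a decarboxylase, packed into vesicles, released onto receptors that mostly couple to G proteins, and taken up again by transporters. In the reproductive tract serotonin, histamine and noradrenaline are best known for their effects on smooth muscle and blood vessels.

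Pgr, the gene disrupted in both genotypes, was 2.09-fold lower in PRKO than in PR+/- (log2 difference -1.06 ± 0.072, SE), with no overlap of arrays. Epithelial markers of the oviduct were present: the mean log2 signal of Pax8, a transcription factor of secretory cells, was 8.5 and that of Dnah5, a motor protein of cilia, 9.63. Of 6 measured secretory and 7 multiciliated cell markers, 0 passed the test, against 1 and 1 at an unadjusted p under 0.05. Transcripts of ovarian steroid synthesis stood apart on PR+/- replicate 4 and PRKO replicate 3, where Cyp11a1 read 7.04 and 7.1, and PRKO pools varied more than PR+/- pools. The SD was larger in PRKO for 7 of the 9 measured members and for 74.7% of all genes.

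Maob was the 1 member that passed the test, and it fell more steeply than all but 1 of the 19938 genes. Its log2 signal was 8.58, 8.36, 8.51, 8.05 and 8.34 in PR+/- replicates 1 to 5 and 5.76, 6.07, 6.39, 6.43 and 6.18 in PRKO replicates 1 to 5. Every PRKO array lay below every PR+/- array, and the space between the groups, from 6.43 to 8.05, was wider than either group's own range. The means were 8.37 ± 0.2 and 6.17 ± 0.27 (SD, n = 5 each), a log2 difference of -2.2 ± 0.13 (SE, 95% interval -2.48 to -1.92), or 4.59-fold lower (limma, Benjamini-Hochberg adjusted p = 4.62e-07). A fall of at least 4-fold with an adjusted p under 0.05 was seen for 3 genes, 0.015% of those tested. Over 20 alternative settings the difference of Maob lay between -2.34 and -2.1, with an adjusted p of at most 5.94e-05.

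Maoa, the sister enzyme, showed no such gap. Its log2 signal was 7.11, 7.04, 6.86, 7.04 and 7.07 in PR+/- replicates 1 to 5 and 6.86, 6.87, 7.16, 7.14 and 6.99 in PRKO. The groups covered almost the same range, 6.86 to 7.11 against 6.86 to 7.16. The difference was -0.02 with a 95% interval of -0.2 to 0.16 (adjusted p = 0.905), and its sign turned to 0.02 under quantile and cyclic loess normalization. The log2 gap between Maob and Maoa on the same array ran from 1.0 to 1.64 in PR+/- and from -1.1 to -0.71 in PRKO. This gap differed between genotypes by -2.18 (exact permutation test, two-sided, p = 0.00794, which is the lowest value possible with 252 arrangements of 5 against 5). The gaps of the 2 genotypes thus did not overlap, and the p-value reflects that separation alone. Both genes were listed with results of these data known, so the test describes them and supports nothing further.

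**Figure D1:**
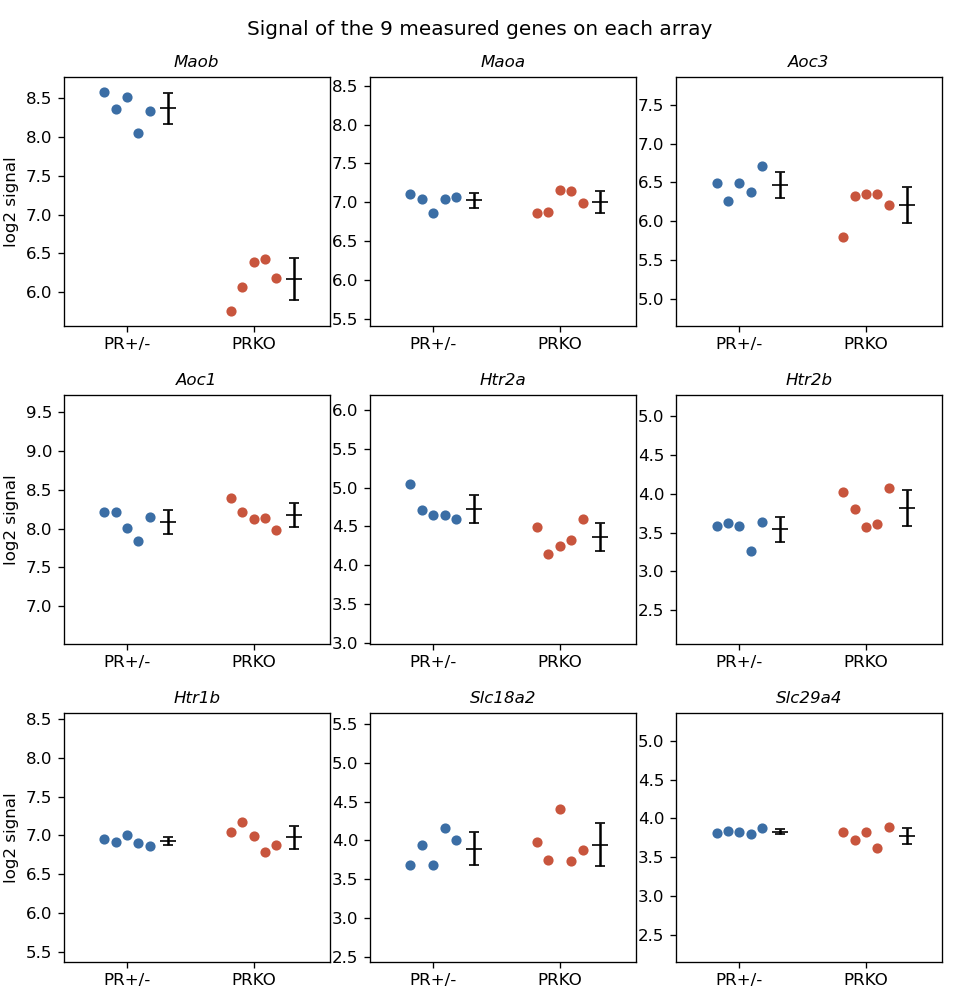
Log2 signal (y axis, a span of 3.2 log2 units in each panel) of the 9 measured genes on each of the 5 PR+/- arrays (blue points) and 5 PRKO arrays (red points), in replicate order from left to right within a group, with the mean and SD as black bars. Maob drops from 8.37 to 6.17 with a wide gap between genotypes, Htr2a separates by a hair, and the points of the other 7 genes overlap.

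Maoa and Maob lie next to each other on the X chromosome in the mouse gene table of the GRCm38 assembly, so the genes around them were set beside them. Ndp, which encodes the secreted protein norrin and follows Maob, read 5.69 to 5.95 in PR+/- and 5.54 to 6.17 in PRKO, a difference of -0.02 ± 0.1 (adjusted p = 0.925). Efhc2, the next measured gene, had a difference of 0.03 ± 0.18 (adjusted p = 0.928). On the other side, Cypt1 had one of 0.05 ± 0.086 and the pseudogene Ppp1r2-ps9 one of 0.19 ± 0.094 (adjusted p = 0.785 and 0.267). Among these measured neighbours Maob alone passed the test.

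The sequence before the Maoa start is shown because this gene sits beside Maob and did not pass the test. RefSeq promoter entries (GRCm38.p6) were matched for 8 of the 10 members. For Maob and Aoc3 no entry was found, so their windows were not searched. Windows of 250 bases up to the start were searched on both strands for TGTTCT, the half-site to which the progesterone and glucocorticoid receptors can bind, for the full palindrome, read as GNACA, 3 bases of any kind and TGTNC, and for GGGCGG, the core of an Sp1 site. Among all 32851 entries, 16.1%, 0.387% and 32.7% held these. Capitals mark matches on either strand; no bases were shared between motifs in the printed windows. The Maoa window, chrX:16619448-16619697 on the plus strand, reads:
Maoa: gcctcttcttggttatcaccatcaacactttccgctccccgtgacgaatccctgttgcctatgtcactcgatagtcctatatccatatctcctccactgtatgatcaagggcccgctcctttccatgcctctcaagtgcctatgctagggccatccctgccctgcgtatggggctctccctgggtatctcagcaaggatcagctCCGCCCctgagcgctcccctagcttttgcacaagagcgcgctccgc
It held GGGCGG once, as its reverse complement 46 to 41 bases before the start, and neither hormone element. Of the 9 matched entries of members (Aoc1 has 2), 3 held TGTTCT, 4 held GGGCGG and 0 held the palindrome. These are matches of letters in a short window and show no binding.

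Smooth muscle markers were lower in the same pools. All 9, among them Des, Actg2 and Myh11, fell, with a median difference of -0.72, and the mean log2 signal over the list ran from 9.15 to 9.32 in PR+/- and from 8.28 to 8.56 in PRKO. Of 6 pericyte markers, 3 fell, Kcnj8 and Abcc9, subunits of a potassium channel, and Rgs5 (-1.44, -0.87 and -0.48). The other 3, Pdgfrb, Cspg4 and Notch3 (-0.32, 0.01 and 0.16), did not pass. The list mean of all 6 ran from 6.78 to 7.01 in PR+/- and from 6.32 to 6.49 in PRKO. The fall of Maob, -2.2, was deeper than that of any of these 15 markers. Of 8 stromal fibroblast markers, Pdgfra fell (-0.39) and 7 did not pass, Lum alone being positive (0.37). Of 5 mesothelial markers, 2 fell, Msln and Krt19 (-0.45 and -0.4). The other 3, Upk3b, Upk1b and Lrrn4 (-0.26, -0.1 and 0.08), did not pass. The means of both lists overlapped between genotypes. In whole oviducts, fewer cells of a type and less RNA per cell cannot be told apart, and the part of muscle cells in the fall of Maob was not tested.

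**Figure D2:**
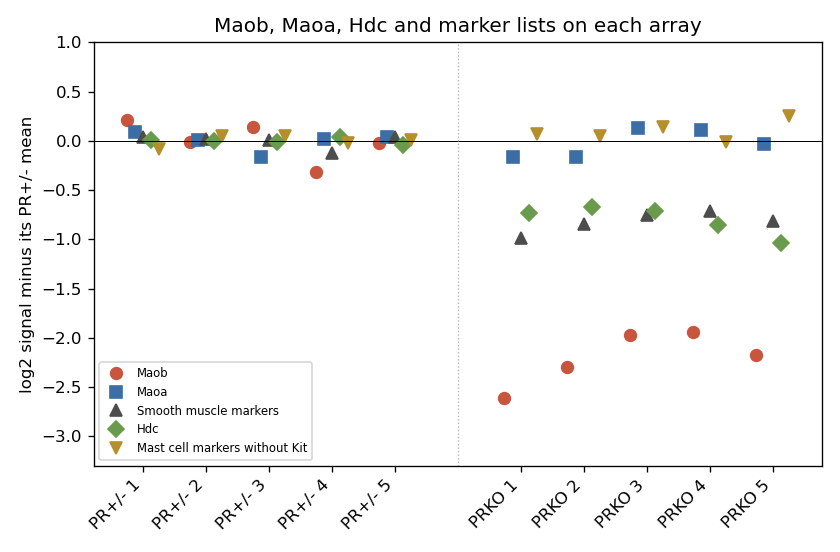
Log2 signal minus its own PR+/- mean (y axis) for Maob, Maoa and Hdc and for the mean of 9 smooth muscle markers and 8 mast cell markers (Kit left out), on each of the 10 arrays (x axis). On PRKO arrays Maob sits at -2.61 to -1.94, the smooth muscle mean at -0.99 to -0.71, Hdc at -1.04 to -0.67, Maoa at -0.16 to 0.13 and the mast cell mean at -0.01 to 0.25.

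The genes whose pattern over the 10 arrays was most like that of Maob were found by the root mean square difference after each gene was centred on its PR+/- mean. The nearest was Dpep1, a membrane dipeptidase, at 0.277 log2 units, followed by Sbspon, a secreted matrix protein, at 0.338, Edn3, the peptide endothelin 3, at 0.381, the transcription factor Zbtb16 at 0.403, and Cwh43, a factor in lipid anchor synthesis, at 0.41. Their differences of -2.09, -1.91, -1.89, -1.79 and -1.87 follow from the measure. Both the genotype gap and the spread within a genotype enter the measure. Among PRKO arrays Maob, Sbspon and Edn3 were lowest in replicate 1, Dpep1 in replicate 5, Zbtb16 in replicate 2 and Cwh43 in replicate 3.

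The copper-dependent amine oxidases did not pass the test. Aoc3, an oxidase on the surface of vascular smooth muscle, endothelial and fat cells, read 6.49, 6.26, 6.49, 6.38 and 6.71 in PR+/- and 5.8, 6.32, 6.35, 6.35 and 6.21 in PRKO. PRKO replicate 1 was the lowest of all arrays and 3 of the 5 PRKO arrays lay within the PR+/- range. The difference was -0.26 ± 0.11 (adjusted p = 0.208), and -0.16 without PRKO replicate 1. Aoc1, a secreted oxidase that degrades histamine and putrescine, read 7.84 to 8.21 in PR+/- and 7.98 to 8.4 in PRKO, with a difference of 0.09 ± 0.096 (95% interval -0.12 to 0.3, adjusted p = 0.62). Aoc2, the neighbour of Aoc3 and a member of its family, had a difference of 0.32 ± 0.1 (adjusted p = 0.0875). Aoc2 passed when PRKO replicate 3 was left out, and when the arrays of highest ovarian signal were.

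Among serotonin receptors, Htr2a was the nearest to the threshold. This receptor, which couples to Gq proteins and contracts smooth muscle, read 5.04, 4.71, 4.64, 4.65 and 4.59 in PR+/- and 4.49, 4.14, 4.25, 4.33 and 4.59 in PRKO. The groups did not overlap, by a margin too small to carry weight: the lowest PR+/- array was at 4.592 and the highest PRKO array at 4.589. The difference was -0.37 ± 0.1 (SE, 95% interval -0.59 to -0.14, adjusted p = 0.0609). Htr2a passed under quantile normalization (-0.42, adjusted p = 0.0318), median centring (-0.4, 0.0455), cyclic loess normalization (-0.44, 0.0259), array weights (-0.41, 0.0337), without the dimmest 30% of probe sets (-0.37, 0.0452), and without PRKO replicate 5 (-0.42, 0.0367). Over all alternatives its adjusted p ran from 0.0259 to 0.174. Its promoter window, shown because this member was nearest to the threshold, lies at chr14:74640624-74640873 on the plus strand:
Htr2a: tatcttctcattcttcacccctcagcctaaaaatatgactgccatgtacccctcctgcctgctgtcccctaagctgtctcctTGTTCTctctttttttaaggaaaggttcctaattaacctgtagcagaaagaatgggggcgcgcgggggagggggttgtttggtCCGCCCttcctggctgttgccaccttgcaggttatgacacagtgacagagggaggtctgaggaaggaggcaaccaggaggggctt
TGTTCT stands 168 to 163 bases before the start, and GGGCGG, reverse complemented, 85 to 80 bases before it.

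Htr2b, another receptor that couples to Gq, read 3.59, 3.62, 3.59, 3.26 and 3.64 in PR+/- and 4.02, 3.81, 3.57, 3.61 and 4.08 in PRKO. Of the PRKO arrays, 3 lay above all PR+/- arrays and 2 within their range, and the difference was 0.28 ± 0.11 (adjusted p = 0.17). Its window held TGTTCT in reverse complement, 184 to 179 bases before the start. Htr1b, a receptor that inhibits adenylyl cyclase through Gi proteins, read 6.86 to 7.01 in PR+/- and 6.78 to 7.17 in PRKO, with a difference of 0.05 ± 0.082 (95% interval -0.13 to 0.22, adjusted p = 0.764).

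Beside these 3 receptors, 11 other serotonin receptor genes were measured, and 0 of the 14 passed (4 at an unadjusted p under 0.05: Htr2a, Htr2b, Htr5a and Htr3b). Their median difference was 0.15, and 13 of 14 were positive, Htr2a being the exception. For 13 of the 14, all but Htr1b, the mean signal was under 5, and over all 7987 genes that dim the median was 0.11 with 80.1% positive. Both shares moved with the scaling: after cyclic loess normalization 9 of the 14 receptors and 54.7% of the dim genes were positive. The array table holds no detection values, so it cannot be said which of these receptors were above background.

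The transporters did not pass. Slc18a2, the vesicular monoamine transporter of nerve endings, mast cells and platelets, read 3.68 to 4.16 in PR+/- and 3.73 to 4.4 in PRKO, a difference of 0.05 ± 0.13 (95% interval -0.23 to 0.33, adjusted p = 0.839) that was -0.03 after quantile normalization. Slc29a4, a low-affinity, high-capacity transporter of serotonin and dopamine in the plasma membrane, read 3.8 to 3.88 and 3.62 to 3.89, a difference of -0.06 ± 0.071 (adjusted p = 0.677). The mean signals of both lay low among those of all genes (percentiles 24.5 and 22.9). It cannot be said whether either was above background, and a change might be understated there.

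Thus 1 of the 9 measured members fell and 0 rose, where 4.96% of all genes passed, 3.87% downward and 1.09% upward. Without overlap between genotypes were 2 of the 9, Maob and Htr2a, both lower in PRKO, against 7.2% of all genes (5.06% lower and 2.15% higher). The members' median difference was -0.02, that of all genes 0.03. Since the members were chosen with results known, nothing is read from these counts.

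Of a further 50 genes of serotonin, catecholamine and histamine handling, 45 were measured, of which 6 fell, 1 rose and 38 did not pass, with a median difference of 0.06. The genes that fell make histamine, clear it, conjugate amines or oxidise polyamines and aldehydes: Sult1a1, Hdc, Smox, Aldh7a1, Aldh1a1 and Hnmt. The noradrenaline transporter gene Slc6a2 rose. With the width of each array's signal distribution (its interquartile range) as a covariate, Sult1a1, Hdc and Aldh7a1 alone of the 7 passed.

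**Figure D3:**
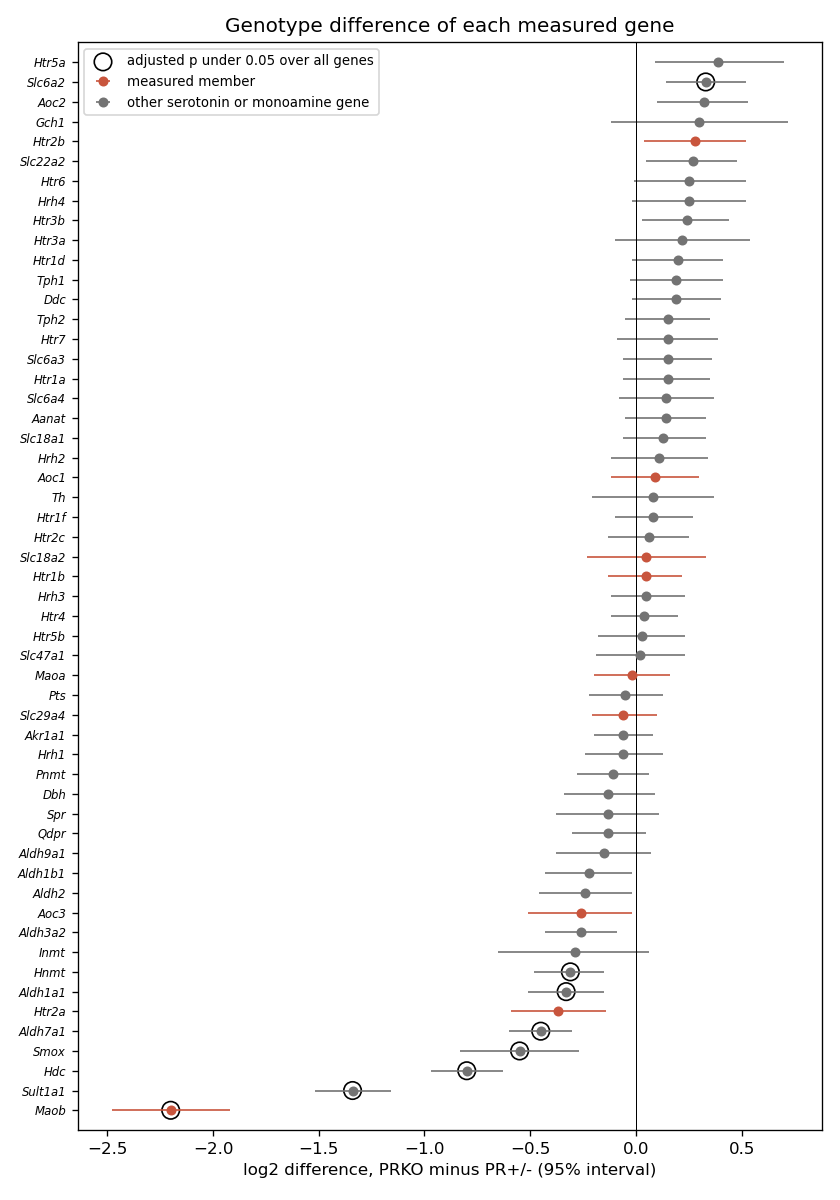
Log2 difference, PRKO minus PR+/- (x axis), of the 9 measured members (red) and 45 other serotonin or monoamine genes (grey), 1 gene per line in order of the difference; bars are 95% intervals and open circles mark an adjusted p under 0.05 over all 19938 genes. Maob lies at -2.2, apart from Sult1a1 at -1.34 and Hdc at -0.8, and the remaining genes lie between -0.55 and 0.39.

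Sult1a1, a sulfotransferase that adds sulfate to phenols and can act on monoamines, read 6.51, 6.48, 6.13, 6.43 and 6.41 in PR+/- and 4.96, 5.05, 5.14, 5.09 and 5.02 in PRKO. No PRKO array came near the PR+/- arrays. It was 2.53-fold lower (log2 difference -1.34 ± 0.082, adjusted p = 6.34e-07). Hdc, the decarboxylase that makes histamine, read 11.16, 11.15, 11.13, 11.18 and 11.1 in PR+/- and 10.42, 10.47, 10.43, 10.29 and 10.11 in PRKO. Its PR+/- arrays lay close together, from 11.1 to 11.18, and all PRKO arrays lay below them, 1.74-fold lower in the mean (log2 difference -0.8 ± 0.079, adjusted p = 2.64e-05). Both calls held in all 20 alternatives.

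Mast cells are a usual source of histamine, and their defining markers were dim in both genotypes. Cpa3, Cma1, Mcpt4, Tpsb2, Tpsab1, Ms4a2, Fcer1a and Mrgprb2 had mean log2 signals of 2.33 to 4.45, and 0 of the 8 passed (2 at an unadjusted p under 0.05). Their list mean was 3.1 to 3.22 in PR+/- and 3.16 to 3.42 in PRKO. Signals this low may lie near background, and the part of mast cells in the fall of Hdc was not tested. Kit, a growth factor receptor of mast cells and other cells, rose in PRKO (0.39 ± 0.1, adjusted p = 0.0476).

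The windows before these starts, shown because the signals of both genes fell, lie at chr2:126618679-126618928 and chr7:126676419-126676668, both on the minus strand and printed in the direction of transcription:
Hdc: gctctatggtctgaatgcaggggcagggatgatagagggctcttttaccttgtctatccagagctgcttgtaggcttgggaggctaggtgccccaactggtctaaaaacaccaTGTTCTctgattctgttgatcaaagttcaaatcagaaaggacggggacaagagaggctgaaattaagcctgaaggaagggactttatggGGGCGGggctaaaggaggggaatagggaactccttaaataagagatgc
Sult1a1: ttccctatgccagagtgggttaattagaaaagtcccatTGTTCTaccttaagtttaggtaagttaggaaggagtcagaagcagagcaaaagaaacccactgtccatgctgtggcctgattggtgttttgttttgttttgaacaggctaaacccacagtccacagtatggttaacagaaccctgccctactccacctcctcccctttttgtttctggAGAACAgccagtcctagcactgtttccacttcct
Hdc held TGTTCT once, 137 to 132 bases before the start, and GGGCGG once, 48 to 43 bases before it. Sult1a1 held TGTTCT 212 to 207 bases before the start and its reverse complement 34 to 29 bases before it. Neither window held the full palindrome.

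Aldehydes released by monoamine oxidase are oxidised by aldehyde dehydrogenases. The gene list, chosen with earlier results known, held 6 of them, and other genes of this family were not read. The differences of these 6 were negative, also under each of 3 other scalings and with the width covariate. Their median was -0.25. All 6 had a mean signal of 5 or more. Of all 11951 genes that bright, 40.2% had a positive difference, and their median was -0.04. Aldh7a1 fell (9.31 to 9.4 in PR+/-, 8.75 to 9.01 in PRKO, difference -0.45 ± 0.071, adjusted p = 0.00164), as did Aldh1a1 (7.89 to 8.0 against 7.48 to 7.91, -0.33 ± 0.084, adjusted p = 0.0359). Aldh2, the mitochondrial enzyme, had a difference of -0.24, Aldh3a2 one of -0.26, Aldh1b1 one of -0.22 and Aldh9a1 one of -0.15. These 4 did not pass (adjusted p 0.189, 0.0787, 0.202 and 0.41). Aldh3a2 passed under another variance model, with a signal trend and robust moderation. Hnmt, which methylates histamine, fell (7.7 to 7.83 against 7.27 to 7.59, -0.31 ± 0.077, adjusted p = 0.0301). Smox, which oxidises spermine, fell as well (7.62 to 7.92 against 6.66 to 7.47, -0.55 ± 0.13, adjusted p = 0.0267), with PRKO replicate 5 lowest, at 6.66.

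The calls of Aldh1a1, Hnmt and Smox lay near the threshold. When single arrays were left out, Aldh1a1 ranged from -0.4 to -0.3 and Hnmt from -0.34 to -0.26. Smox moved more, from -0.61 to -0.41, the smallest fall being without PRKO replicate 5 (adjusted p = 0.0205). Aldh1a1 did not pass when any array but PRKO replicate 3 was left out (difference -0.35 to -0.3, adjusted p 0.0576 to 0.0935), nor with all 10 arrays under quantile normalization (-0.29, 0.0885), cyclic loess normalization (-0.28, 0.0843) or array weights (-0.3, 0.0579). Hnmt did not pass without any PR+/- array or PRKO replicate 1, 2 or 3 (-0.33 to -0.26, adjusted p 0.0516 to 0.0762), without the arrays of highest ovarian signal (-0.32, 0.101), nor under quantile (-0.27, 0.0814) or cyclic loess normalization (-0.27, 0.085). Smox did not pass without PR+/- replicate 1, 2 or 5 (-0.54 to -0.5, adjusted p 0.0617 to 0.0789), and with the width covariate its difference was -0.23 (adjusted p = 0.508). Aldh7a1 passed in each of these fits.

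Genes that make serotonin did not pass. Tph1, the tryptophan hydroxylase of tissues outside the brain, read 2.96 to 3.43 in PR+/- and 3.27 to 3.61 in PRKO (difference 0.19 ± 0.1, adjusted p = 0.315), and Ddc, the decarboxylase that follows, 3.46 to 3.71 and 3.49 to 4.04 (0.19 ± 0.098, adjusted p = 0.291). Of 7 genes of this step and of its cofactor tetrahydrobiopterin, 0 passed, and 0 did so at an unadjusted p under 0.05. Slc6a4, the serotonin transporter, read 6.86 to 7.24 in PR+/- and 7.09 to 7.59 in PRKO (0.14 ± 0.11, 95% interval -0.08 to 0.37, adjusted p = 0.46). The sister transporter gene Slc6a2 read 8.06, 8.16, 8.05, 7.86 and 8.06 in PR+/- and 8.58, 8.5, 8.27, 8.25 and 8.23 in PRKO. All PRKO arrays were above all PR+/- arrays, and the difference was 0.33 ± 0.089 (adjusted p = 0.0484), near the threshold. The call was lost when any PR+/- array or PRKO replicate 1, 2 or 3 was left out (difference 0.28 to 0.36, adjusted p 0.0613 to 0.116), after median centring (0.3, 0.0983) and without the arrays of highest ovarian signal (0.31, 0.136).

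**Figure D4:**
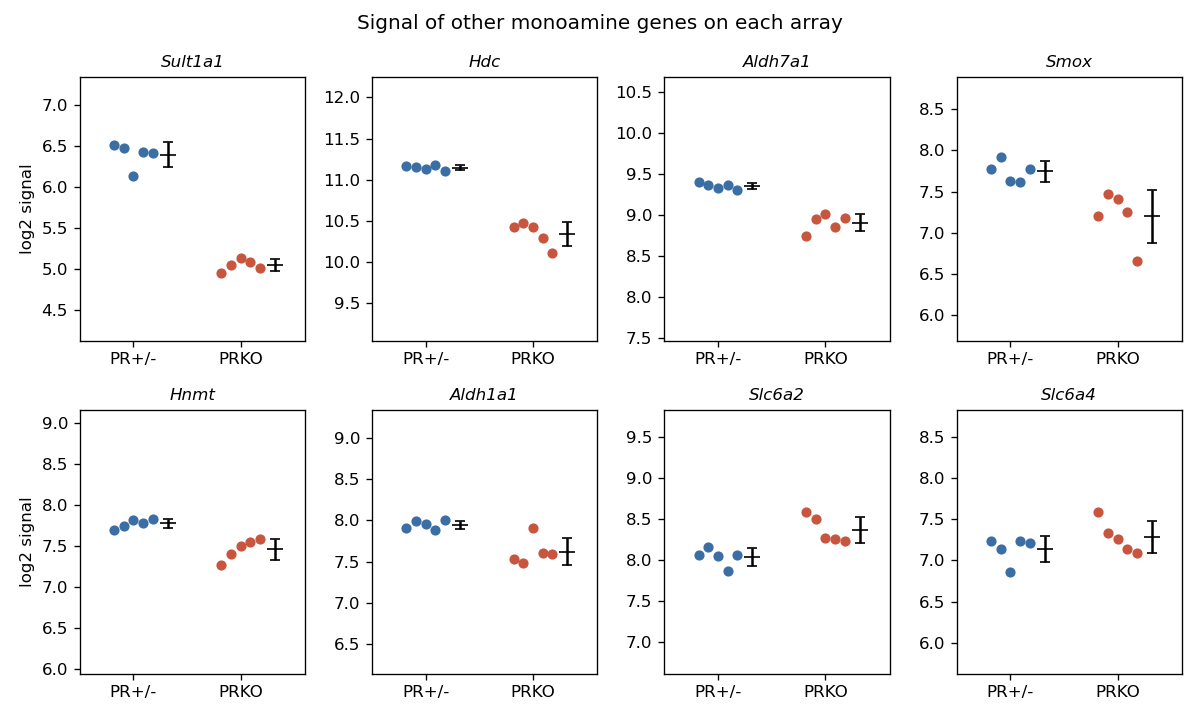
Log2 signal (y axis, a span of 3.2 log2 units in each panel) of the 7 other monoamine genes that passed the test and of Slc6a4 on the 5 PR+/- (blue) and 5 PRKO (red) arrays, in replicate order, with the mean and SD as black bars. Sult1a1 and Hdc are clearly apart, Smox spreads widely in PRKO (6.66 to 7.47), Aldh1a1 has 1 PRKO array at 7.91 within the PR+/- range, and Slc6a4 overlaps.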

How the data were processed

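Whole oviducts of 5 PR+/- and 5 PRKO pools were measured on Affymetrix whole-transcript arrays with biotin-labelled cRNA, per the labels. The values used are the authors' deposited table of 1 value per probe set and array, taken as log2 signal because they lie between 1.091 and 13.58. Per the submitters' processing notes the arrays were processed in Partek; which version was run, and how background, array scaling and probe summary were handled, is not given in the sources used here. Array medians lay between 5.198 and 5.278, so no further normalization was applied, and no detection filter was possible. The width of the distributions was less alike. The interquartile range ran from 3.374 to 3.484 in PR+/- and from 3.13 to 3.415 in PRKO, so as a covariate it partly tracks genotype.

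Probe sets were named from the platform annotation: of 35557 rows, 21789 had 1 symbol, 1621 several and 12147 none. The row with the highest mean stood for each of 19938 genes. Genotypes were compared with limma 3.58.1 (R 4.3.3, 8 residual and 6.076 prior degrees of freedom), adjusted by Benjamini-Hochberg over all genes, at 0.05. The pools are separate animals, which makes pool-to-pool spread the error behind each p-value. The number of arrays limits precision, with a median 95% half-interval of 0.2016 over genes. The same steps were run on simulated normal data with the same SD in both genotypes, unlike the larger PRKO spread seen here. No result above rests on that run. The Maob to Maoa gap was compared by an exact permutation test in scipy 1.17.1.

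Alternatives were 3 other normalizations, a filter on dim probe sets, the mean of probe sets, other variance models, weights per array, a block for the replicate number, the interquartile range as a covariate, leaving out the arrays with ovarian signal, and each array in turn. The members and gene lists were chosen with earlier results of these data known. Named genes are the members, the pathway genes that passed plus Tph1, Ddc and Slc6a4, the measured chromosomal neighbours of Maoa, Maob and Slc22a3, and the 5 genes most like Maob. The others named (pathway genes that did not pass, cell markers) were chosen after their values were seen. Lists of other cell types were counted in the same fit, and no set test was run.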

Additional observations from a re-analysis of the deposited data

Results flagged for a closer look

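On 6 occasions 1 array lay far from the other 4 of its genotype. Of 40 groups looked at (20 genes, both genotypes), chance alone gives about 1 in 20. Aoc3 read 5.8 in PRKO replicate 1 against 6.21 to 6.35 in the others. Htr2a read 5.04 in PR+/- replicate 1 against 4.59 to 4.71. Htr2b read 3.26 in PR+/- replicate 4 against 3.59 to 3.64. Among the other monoamine genes, Aldh1a1 read 7.91 in PRKO replicate 3 against 7.48 to 7.6, Sult1a1 read 6.13 in PR+/- replicate 3 against 6.41 to 6.51, and Slc6a4 read 6.86 in the same array against 7.14 to 7.24.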

How the results depend on the processing

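Maob, Pgr, Sult1a1, Hdc and Aldh7a1 kept their direction and their call in all 20 alternatives; Pgr ranged from -1.1 to -1.02. The count of members that passed was 2, Htr2a joining Maob, under quantile normalization, median centring, cyclic loess normalization, array weights and without the dimmest 30% of probe sets, and 1 to 2 when single arrays were left out. The pathway count, 7, was 8 under the variance model with a signal trend and robust moderation, Aldh3a2 joining. That count was 3 with the interquartile range as a covariate and 3 to 6 when single arrays were left out. The count over all genes, 988, was 322 with that covariate, 562 without the arrays of highest ovarian signal, and 581 to 1165 when single arrays were left out. Each fit without an array or with the covariate has fewer samples or 1 more term, and the covariate also partly tracks genotype. What these contribute to the counts was not tested.

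Differences near 0 changed sign: Maoa to 0.02 under quantile and cyclic loess normalization, Slc18a2 to -0.03 and -0.04 under the same and to -0.1 with the covariate. When single arrays were left out, Maoa ranged from -0.06 to 0.01, Slc18a2 from -0.06 to 0.12 and Htr1b from 0.0 to 0.1.

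The replicate numbers did not meet the rule for pairing, which asks for a correlation of same-numbered deviations over 0.1 in every pair: it was 0.104, 0.125, 0.129 and 0.159 in 4 pairs and -0.0126 in replicate 3 (3 of 5 PR+/- and 2 of 5 PRKO arrays correlating best with their own number). With the number as a block, 1042 genes passed, among them 1 member and 6 pathway genes; Aldh1a1 did not (adjusted p = 0.0513). The Maob to Maoa gap was then -2.18, at an exact sign-flip p of 0.0625, the smallest that 5 pairs can give. Low signals limit what can be said of the dim receptors and transporters.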

Other observations

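Slc22a3 was not measured, but the genes around it in the gene table were. Slc22a2, a related organic cation transporter, read 3.93 to 4.32 in PR+/- and 4.19 to 4.65 in PRKO (difference 0.27 ± 0.099, adjusted p = 0.142). Plg, the plasminogen gene, had a difference of -0.03 ± 0.11, Map3k4, a signalling kinase, one of 0.05 ± 0.086, and Igf2r, the imprinted receptor for insulin-like growth factor 2, one of -0.03 ± 0.068. None of these 4 passed the test, and Slc22a2 alone of them had an unadjusted p under 0.05 (0.0179).

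Fat cells can carry Aoc3. Of 7 adipocyte markers, 6 had a mean signal under 5 and 0 passed (2 at an unadjusted p under 0.05), and their list mean was 4.05 to 4.14 in PR+/- and 4.13 to 4.31 in PRKO. Of 8 blood endothelial markers 2 fell, Pecam1 and Emcn (-0.27 and -0.53). The other 6 did not pass, and 2 of them, Kdr and Vwf, had positive differences (0.02 and 0.06). The list mean of all 8 was 6.32 to 6.45 in PR+/- and 6.07 to 6.35 in PRKO. Of 6 measured nerve and Schwann cell markers, relevant to Slc6a2 and Slc18a2, 0 passed, though 3 had an unadjusted p under 0.05 and all 6 differences were positive. Of these 6, 3 had a mean signal under 5. Over all genes that dim 80.1% were positive, and over all genes 56.1%. The list mean of the nerve and Schwann cell markers was 5.11 to 5.23 in PR+/- and 5.22 to 5.59 in PRKO. The part of these cells in the values of Aoc3, Slc6a2 and Slc18a2 was not tested. Of 5 platelet and 6 enteroendocrine markers, 0 passed and 0 had an unadjusted p under 0.05.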
